A study of Mus musculus with 27 samples.

Results

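The H3K27me3-rich bins of mouse embryonic fibroblasts (MEFs) are the 5-kb windows, counted from position 1 of each of the 19 autosomes, in which the reads of called H3K27me3 nucleosomes reached at least 3 times the mean autosomal bin in both MEF libraries. The rule found 871 of 494476 bins (0.176%, or 4.355 Mb). The threshold equalled 78.4 reads in replicate 1 and 89.0 reads in replicate 2, and 2461 and 2792 bins passed it in each replicate alone. Because the MEF H3K27me3 libraries chose the bins, their H3K27me3 levels and every H3K27me3 comparison with MEFs are given here as descriptions without a test.

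The series compared 3 stages of reprogramming by MNase-ChIP-seq, in which chromatin is cut to mononucleosomes before immunoprecipitation, and by RNA-seq. MEFs came from E13.5 embryos that carried an Oct4-GFP transgene, which reports the endogenous pluripotency programme, and a Rosa26 allele. The labels give a CBA/CaJ and C57BL/6J background, which by the study's methods is that of the fathers, with 129Sv/Jae mothers. The MEFs were grown for no more than 3 passages. Pre-iPSCs, a stable intermediate that looks like a pluripotent colony but lacks full pluripotency expression, and iPSCs were derived from such MEFs by retroviruses for the 4 Yamanaka factors, carried the same alleles and were grown for 6 passages. H3, H3K4me3, H3K27me3 and RNA each had 2 libraries per cell type, and H3K9me3 had 1. Pre-iPSCs and iPSCs were expanded with LIF on MEF feeder layers, given as mitomycin C-treated for expanded iPSCs. Feeder chromatin and RNA can therefore be part of the samples of both. The study used 2 pre-iPSC clones and their iPSCs, obtained in earlier work of its authors, and which clone a library came from is not given in the sources used here. MEF chromatin was digested with another amount and time of MNase than that of the other cells, so that digestion and cell type cannot be told apart in a comparison with MEFs.

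H3K27me3 is the histone mark written by Polycomb repressive complex PRC2, through its subunits Ezh2 or Ezh1, and read by Cbx proteins of PRC1. In mammals it collects over CpG-rich promoters of silent developmental regulators, among them the Hox genes and other transcription factors of lineages that the cell has not taken. Promoters that carry it together with H3K4me3, a mark of CpG-rich and active promoters, are called bivalent. H3K9me3 marks heterochromatin by a separate pathway.

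The sequences of 4 nucleosomes show the DNA inside these bins. Accn4, an acid-sensing ion channel subunit, and Evx1, the homeobox gene at the end of the HoxA cluster, are the genes that start in one of the 10 highest bins. Prdm12, a zinc-finger gene of sensory neurons, lies in a run of bins of high later H3K27me3. Otx2, a homeobox gene of epiblast and forebrain, lies in a bin of low later H3K27me3. The latter 2 were chosen after their values were seen. Each line gives the called nucleosome of H3K27me3 with the most reads outside untranslated regions in MEF replicate 1, in lower case on the plus strand of mm9, with CpG dinucleotides in capitals. The calls lie at chr1:75446231-75446377, chr6:52260950-52261096, chr2:31493447-31493593 and chr14:49280657-49280803, and hold 9, 8, 8 and 8 reads. Their centres are at -781, -2469, -2037 and 1817 bp from the TSS of their gene in its own direction, and Otx2 alone is on the minus strand.
Accn4: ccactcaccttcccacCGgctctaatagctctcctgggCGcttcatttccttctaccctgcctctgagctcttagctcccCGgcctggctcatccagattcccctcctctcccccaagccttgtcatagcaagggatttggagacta
Evx1: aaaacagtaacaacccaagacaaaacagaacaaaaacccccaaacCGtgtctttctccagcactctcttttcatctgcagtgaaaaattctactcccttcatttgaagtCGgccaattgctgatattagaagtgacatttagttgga
Prdm12: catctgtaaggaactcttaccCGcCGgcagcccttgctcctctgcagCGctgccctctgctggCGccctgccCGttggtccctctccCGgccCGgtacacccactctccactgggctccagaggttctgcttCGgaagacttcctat
Otx2: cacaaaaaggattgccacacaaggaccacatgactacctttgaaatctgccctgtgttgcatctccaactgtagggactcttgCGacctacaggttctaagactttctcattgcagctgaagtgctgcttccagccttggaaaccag
They hold 3, 2, 8 and 1 CpG dinucleotides. A bin is thus a sum over many nucleosomes of few reads, 24, 24, 25 and 22 calls in these 4 bins, and the counting error of a bin at the threshold is 11.3% in replicate 1 and 10.6% in replicate 2.

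In 55 of the 871 bins H3 itself reached 3 times its mean bin in a MEF library, and these bins stand apart from the rest. They included runs at chr11:3030001-3100000 (14 bins), chr1:90120001-90155000 (7 bins) and chr9:3015001-3040000 (5 bins). Every antibody was high in them: the MEF medians were 5.89 and 5.02 times the mean bin for H3 in replicates 1 and 2, 9.95 and 10.7 for H3K4me3, 16.4 for H3K9me3 and 5.48 and 5.26 for H3K27me3. Of the 55, 47 were still at 3 times the mean bin in both pre-iPSC libraries and 48 in both iPSC libraries. The values below are for the other 816 bins unless stated.

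The 816 bins fell into 657 runs of adjacent bins, 536 of them single bins and 32 of 3 or more, the longest of 5. Of the 816, chromosome 2 held the most (134) and chromosome 18 the fewest (6, or 0.0331% of its bins), against 0.447% of the bins of chromosome 11. The bins just inside the threshold, near Entpd2, Gm347 and Disp2, held 79 reads each in replicate 1 (3.03 times the mean bin) and 3.61, 3.10 and 3.30 times the mean in replicate 2. Those just outside, near Slc9a2, Resp18 and Ecel1, held 89 reads each in replicate 2 (2.999 times the mean) and 3.64, 3.10 and 3.03 times the mean in replicate 1. Members and non-members thus meet without a gap at this depth.

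The bins were rich in CpG and in gene starts, neither of which the rule used. Median GC content was 51.6% against 41.4% over all autosomal bins, and the median number of CpG dinucleotides was 86 against 35, with 339 bins (41.5%) at 100 or more. A RefSeq transcription start site (TSS) lay in 193 (23.7%) against 3.67% of all bins. By the GENCODE annotation 198 bins held a TSS, 229 another exon, 123 intron only and 266 no gene, or 24.3, 28.1, 15.1 and 32.6%, against 4.01, 17.1, 20.5 and 58.4% of all bins. The median distance to the nearest TSS was 6898 bp against 82532 bp. Bins without a RefSeq TSS were still CpG-rich, with a median of 74 against 139 in those with one.

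Levels are given as the reads in a bin divided by the mean autosomal bin of the same library. H3K27me3 libraries held 13.22 to 15.22 M (mega) reads in calls (26.1 to 29.7 per bin), H3K4me3 libraries 12.01 to 13.15 M reads, H3K9me3 libraries 12.22 to 12.94 M reads and H3 libraries 67.36 to 108.2 M reads. The 816 bins are 0.165% of bins and held 0.567% and 0.561% of the MEF H3K27me3 reads. Their median H3K27me3 levels were 3.33 and 3.34 in MEFs, then 2.62 and 2.64 in pre-iPSCs, then 2.54 and 2.62 in iPSCs, against 0.91 to 0.96 over all bins. Since the 2 MEF libraries chose the bins, part of the difference between MEFs and the later cells is set by the rule. Over the 27532 bins of at least 50% GC, which the mark did not choose, the medians were 1.11 and 1.52 in MEFs, then 1.70 and 1.65 in pre-iPSCs, then 1.78 and 1.65 in iPSCs.

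**Figure D1:**
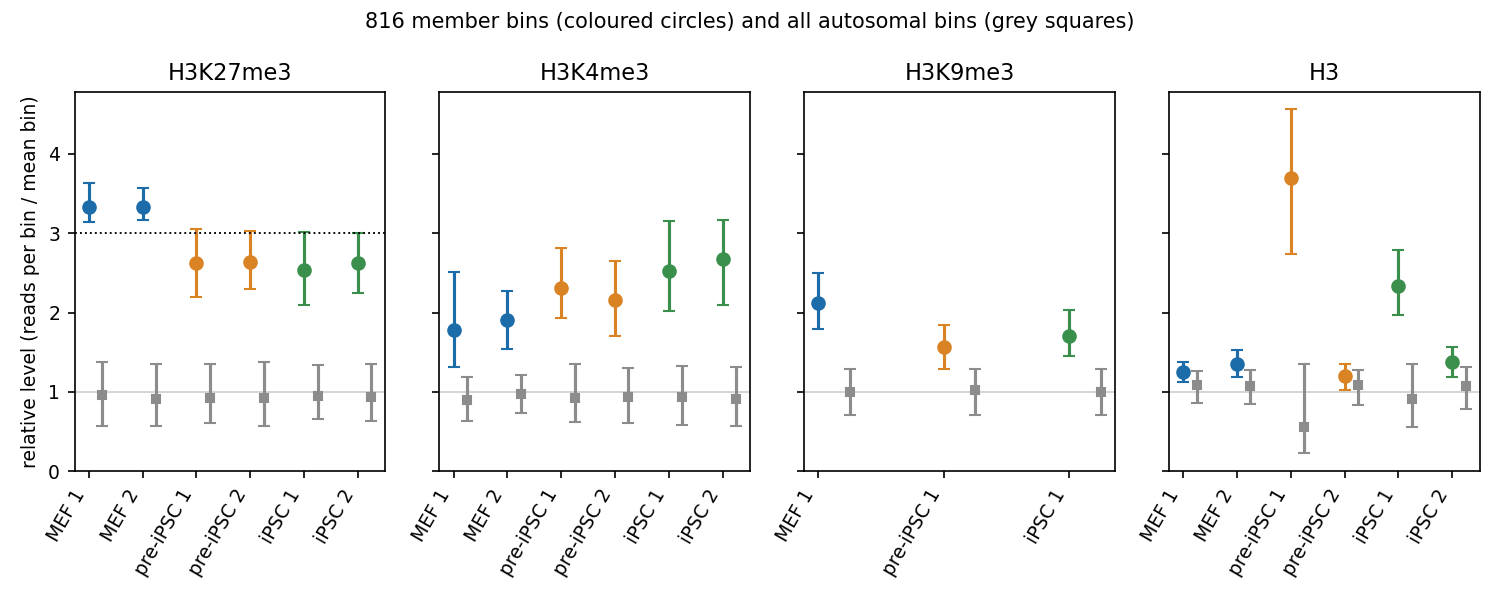
Median level of each mark (y axis, reads per bin divided by the mean bin of the library) in the 816 bins (coloured circles) and in all autosomal bins (grey squares), 1 point per library on the x axis, with bars from the lower to the upper quartile. H3K27me3 was at 3.33 and 3.34 in MEFs and at 2.54 to 2.64 in the later cells, H3K4me3 went from 1.79 and 1.90 to 2.53 and 2.67, and pre-iPSC replicate 1 stood apart for H3 at 3.69.

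The median level of H3K4me3 in these bins was above the mean bin in every cell type, as were those of H3K9me3 and H3 given below. It was 1.79 and 1.90 in MEFs, then 2.31 and 2.16 in pre-iPSCs, then 2.53 and 2.67 in iPSCs, against about 0.9 in all bins. These H3K4me3 levels are not set against those of GC-rich bins, so they do not show that the mark is particular to the members. In the members with a RefSeq TSS it was 2.51 and 2.19 in MEFs, close to the 2.47 and 2.07 of all bins with a TSS, whose H3K27me3 was 0.842 and 0.876. In iPSCs it was 3.15 and 3.08 in members with a TSS and 1.95 and 2.06 in all bins with one. Members without a TSS were lower in MEFs, at 1.57 and 1.78, and at 2.37 and 2.55 in iPSCs. Reads of both marks in a bin do not show that both lie on the same nucleosome or in the same cell.

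H3K9me3, measured in 1 library per cell type and so without a test, was also above the mean bin, at a median of 2.12 in MEFs, then 1.57 in pre-iPSCs, then 1.70 in iPSCs against 1.00 to 1.02 in all bins. In GC-rich bins the medians ran the other way, at 1.12, 1.37 and 1.45. Members without a TSS had a MEF median of 2.16 and those with a TSS 1.96. The highest MEF levels were 3.91 in an exonic bin of Ccdc108 near Cryba2 (chr1:74950001-74955000), 3.79 in an intergenic bin near Mafa (chr15:75570001-75575000) and 3.75 at the start of Fam163b (chr2:26995001-27000000). In pre-iPSCs the same bins read 2.20, 1.77 and 1.49. H3 was near the mean bin in MEFs, at 1.25 and 1.36, whereas the other H3 libraries differed between replicates, at 3.69 and 1.20 in pre-iPSCs, then 2.33 and 1.38 in iPSCs. GC-rich bins showed the same H3 split, at 4.04 and 1.18 and at 2.39 and 1.39, so division by H3 was kept as an alternative only.

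The 10 highest bins lay in or beside genes of varied roles, and 2 of them held a RefSeq start. The first was an intergenic bin near Sema5b, a semaphorin of axon guidance (chr16:35535001-35540000), at 6.97 and 4.58 in MEFs, then 6.21 and 5.24 in pre-iPSCs, then 4.83 and 6.00 in iPSCs. Its H3 was 2.66 and 2.07 in MEFs, just under the bound used above. The bin at the start of Accn4 (chr1:75445001-75450000) read 4.33 and 4.45 in MEFs, then 3.97 and 2.83 in pre-iPSCs, then 3.88 and 3.67 in iPSCs. These bins thus kept much of their level.

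An exonic bin of Plcb2, a phospholipase C of haematopoietic and taste cells (chr2:118530001-118535000), was at 4.37 and 4.35 in MEFs, then 3.62 and 3.67 in pre-iPSCs, then 3.99 and 3.97 in iPSCs, and an intergenic bin near Arhgef1 (chr7:25715001-25720000) at 4.44 and 4.25, then 4.01 and 3.37, then 3.63 and 3.75. The Evx1 bin (chr6:52260001-52265000), whose nucleosome is printed above, went from 4.52 and 4.08 in MEFs to 2.23 and 2.41 in pre-iPSCs and to 3.05 and 2.81 in iPSCs. An intron of Srcin1, a Src-regulating adaptor (chr11:97430001-97435000), went from 4.48 and 4.11 to 2.41 and 3.29 and to 1.96 and 2.81. In all 4 bins the later libraries lay below those of MEFs, which chose the bins.

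The remaining bins of highest level differed more widely. An exonic bin of Pde2a, a cyclic nucleotide phosphodiesterase (chr7:108600001-108605000), was at 4.10 and 4.58 in MEFs, then 2.84 and 2.75 in pre-iPSCs, then 3.09 and 2.66 in iPSCs. An intergenic bin near Foxf2, a forkhead gene of mesenchyme (chr13:31710001-31715000), read 4.29 and 4.21, then 2.91 and 2.95, then 2.36 and 3.07. An exonic bin of Cacna2d2, a calcium channel subunit (chr9:107425001-107430000), read 4.29 and 4.01 in MEFs but 1.06 and 0.421 in pre-iPSCs, with 2.43 and 2.47 in iPSCs. The Cacna2d2 bin alone among the 10 was under the mean bin in a later library.

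The 5 longest runs are described by the genes they cover. A run of 5 bins at Lhx3, a LIM-homeobox gene of pituitary and motor neurons (chr2:26040001-26065000), averaged 3.50 and 3.48 in MEFs, then 2.99 and 2.63 in pre-iPSCs, then 2.66 and 3.21 in iPSCs. The 4 bins at Prdm12 (chr2:31490001-31510000) averaged 3.90 and 3.77, then 3.34 and 3.05, then 3.15 and 3.15. The 4 bins at Skor1, a co-repressor of the nervous system (chr9:62985001-63005000), averaged 3.44 and 3.58, then 3.02 and 3.21, then 3.33 and 2.85. At these 3 genes the later averages lay below those of MEFs, at 2.63 to 3.34. Whether that level is retained mark was not tested. Inside the Cbfa2t3 gene, a haematopoietic co-repressor (chr8:125195001-125215000), 4 bins averaged 3.57 and 3.60 in MEFs, then 3.08 and 3.08 in pre-iPSCs, then 4.39 and 3.09 in iPSCs. The 4 bins inside Rnf220, a ubiquitin ligase (chr4:116970001-116990000), were lower in the later cells and averaged 3.48 and 3.33 in MEFs, then 1.11 and 1.42 in pre-iPSCs, then 2.00 and 2.24 in iPSCs.

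What remained of the mark depended on the height asked for. At 3 times the mean bin in both libraries, 114 of the 816 bins (14.0%) were left in pre-iPSCs and 95 (11.6%) in iPSCs. Of these, 45 were at that level in both cell types, 69 in pre-iPSCs only and 50 in iPSCs only, and 652 (79.9%) in neither. Over all 871 bins the counts were 161 (18.5%) and 143 (16.4%), against 0.158% and 0.0859% of all autosomal bins at that level in both pre-iPSC or both iPSC libraries and 0.176% in MEFs. At 2 times the mean, 653 bins (80.0%) were left in pre-iPSCs and 606 (74.3%) in iPSCs, and only 5 bins in either cell type were below the mean bin in both libraries. The bulk of the bins therefore read above the genome's mean in the later cells, at a lower level than in MEFs. The shares at 2 times the mean are not set against a share of all bins or of GC-rich bins, whose later medians were also above the mean bin. H3 was above the mean bin here too, and its median in a pre-iPSC library exceeded that of H3K27me3. After division by H3, which gives other members, hardly any stayed at the threshold. Whether the later level is retained mark was not tested.

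Bins chosen by a threshold in 1 library read lower in another library of the same cells, and the MEF libraries give that value. Bins without high H3 chosen from MEF replicate 1 alone (2345 bins) were at 3 times the mean in MEF replicate 2 in 34.8% of cases, with a median of 2.80. In the pre-iPSC libraries 16.5% and 14.4% of them were at that level, and in the iPSC libraries 14.3% and 13.4%. Bins chosen from MEF replicate 2 alone (2698) were at that level in MEF replicate 1 in 30.2%, with a median of 2.72, and in 20.8% and 17.3% of cases in pre-iPSCs, with 17.0% and 12.5% in iPSCs. The later libraries thus held fewer of these bins than the MEF library that had not chosen them, which itself held 34.8% and 30.2% of them at the threshold. The MEF feeders under the later cells could carry the MEF mark. Summed over 8 fibroblast marker genes, RNA was at 4384 to 4879 FPKM in MEFs, then 98.25 to 303.2 in pre-iPSCs, then 207 to 253 in iPSCs, with all 8 at 1 FPKM or more in each cell type, and the part of feeders in the remaining mark was not tested.

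**Figure D2:**
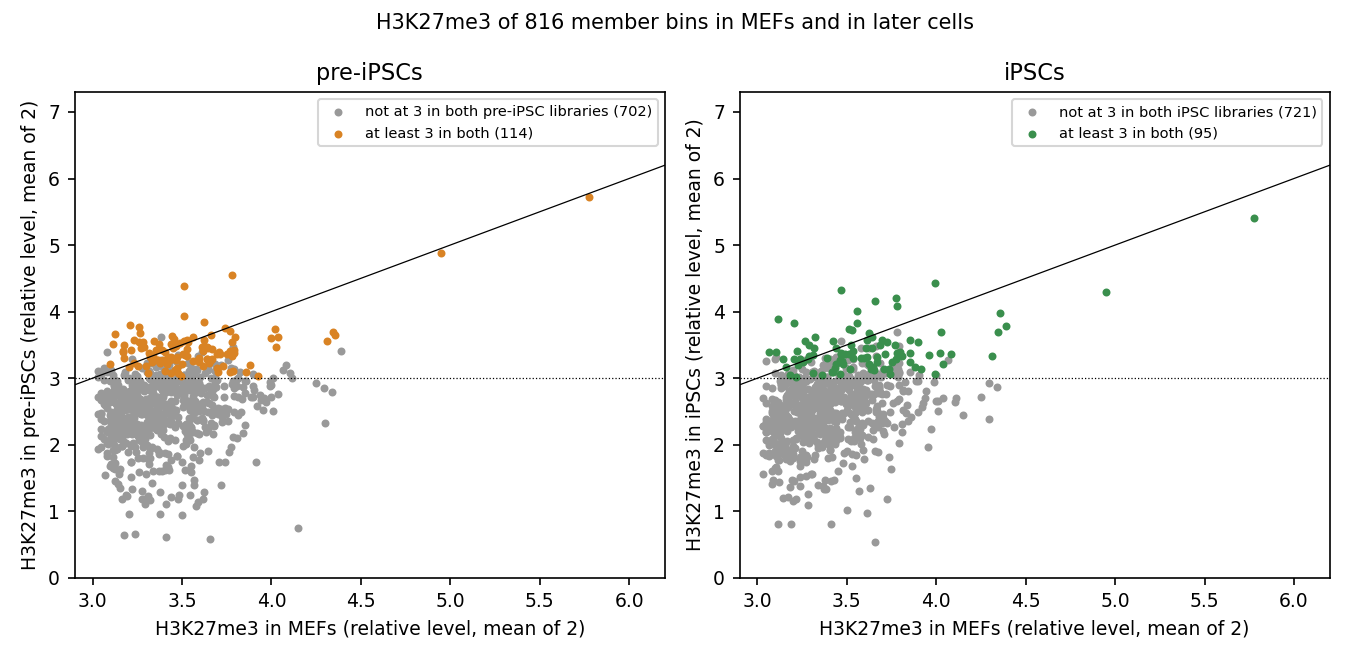
H3K27me3 level of each of the 816 bins (1 point a bin, mean of 2 libraries, reads divided by the mean bin) in MEFs on the x axis and in pre-iPSCs (left) or iPSCs (right) on the y axis, with the line of equal level and a dotted line at 3. Coloured points are the 114 and 95 bins at 3 or more in both later libraries, and most points lie under the line of equal level.

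Between pre-iPSCs and iPSCs, a comparison independent of the MEF libraries, the mark was tested with edgeR's quasi-likelihood test over 437846 bins, with p-values adjusted over all of them and a false discovery rate of 0.05. Of the 816 members 6 were higher in iPSCs and 3 lower (the same 9 among all 871), against 0.133% and 0.0596% of all bins tested (0.193% in either direction), and the median log2 change was -0.04. All 9 had at least 50% GC, where 6 of 538 members were higher (1.12%) and 3 lower (0.558%), against 1.21% and 0.290% of all 26939 tested bins of that GC content. Without a test, both iPSC libraries lay above both pre-iPSC libraries in 157 of the 816 (19.2%, 18.8% of all bins) and below them in 198 (24.3%, 17.2% of all bins). The rises were at Ntn1, Itgb4, Cacna2d2, Mapk15, Pllp and Mal. At a GENCODE start of Ntn1, the axon guidance cue netrin-1, which is not its RefSeq start (chr11:68210001-68215000), the level was 3.18 and 3.64 in MEFs, then 0.426 and 0.803 in pre-iPSCs, then 2.72 and 2.14 in iPSCs. The log2 change from pre-iPSCs to iPSCs was 1.98 (SE 0.275, adjusted p = 1.9e-04). At Itgb4, the integrin beta-4 of epithelial hemidesmosomes (chr11:115835001-115840000), the levels were 3.25 and 3.10, then 0.816 and 0.459, then 2.43 and 2.17, a rise of 1.82 (SE 0.269, adjusted p = 4.3e-04). At both genes the mark was under the mean bin in pre-iPSCs and above it on either side.

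The Cacna2d2 bin described above rose by 1.69 (SE 0.270, adjusted p = 0.00122). The exonic bins of Mapk15, an atypical MAP kinase (chr15:75825001-75830000), and Pllp, the membrane protein plasmolipin (chr8:97215001-97220000), rose by 1.48 and 1.30, and the bin at the start of Mal by 1.07 (adjusted p of 8.1e-04, 0.00465 and 0.021). The 3 falls were near Sgsm1, at Nphs1 and near Ube2h. In the Sgsm1 bin (chr5:113750001-113755000) the level was 3.06 and 3.17 in MEFs, then 1.74 and 2.37 in pre-iPSCs, then 0.690 and 0.937 in iPSCs, a log2 change of -1.34 (SE 0.263, adjusted p = 0.0122). At Nphs1, the nephrin of the kidney's filtration slit (chr7:31245001-31250000), the levels were 3.79 and 3.47, then 2.94 and 2.75, then 1.45 and 1.24, a change of -1.09 (SE 0.218, adjusted p = 0.0146). The Ube2h bin (chr6:30130001-30135000) changed by -0.99 (SE 0.228, adjusted p = 0.0461). DESeq2 called none of the 871 bins (0.00137% of all bins), with 47 at an unadjusted p under 0.05 against 142 by edgeR. These counts are not set against the share of all bins at that p, so they do not set the members apart. Leaving out iPSC replicate 2 raised the share that edgeR called, and leaving out pre-iPSC replicate 2 lowered it, among the 816 and among all bins. The calls at Ntn1 and Itgb4 held when any 1 library was left out. The calls near Cacna2d2, Mapk15 and Sgsm1 were lost without pre-iPSC replicate 2, that near Sgsm1 also without iPSC replicate 1, those at Nphs1 and Mal without either pre-iPSC replicate, that at Pllp without pre-iPSC replicate 1 or iPSC replicate 1 and that near Ube2h without any 1 library (adjusted p of 0.060 to 0.32).

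H3K4me3 was higher in iPSCs than in MEFs in a larger share of these bins than of all bins, and in a smaller share than of GC-rich bins. Against MEFs, 13 of the 816 members were higher in pre-iPSCs and 1 lower (edgeR over 442485 bins and all 6 libraries), where 1.22% and 0.777% of all bins were (1.99% in either direction), with a median log2 change of 0.30. In iPSCs against MEFs 82 were higher and 0 lower, where 3.96% and 2.47% of all bins were (6.44% in either direction), with a median of 0.49. Of the members with at least 50% GC 73 of 538 (13.6%) were higher in iPSCs, with a median of 0.55, whereas 26.7% of all 27020 tested bins of that GC content were, with a median of 0.63. The same held for pre-iPSCs against MEFs, with 10 of 538 members (1.86%) against 5.66%. Members with a TSS were higher in 15 of 193 cases (7.77%) in iPSCs against MEFs, where 3.77% of all bins with a TSS were higher and 6.99% lower, and those without in 67 of 623 (10.8%), where 3.97% of all bins with no TSS were. The share among members was thus above that of bins alike in TSS and below that of bins alike in GC content. Of the 55 bins with high H3, 2 were higher and 11 lower.

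**Figure D3:**
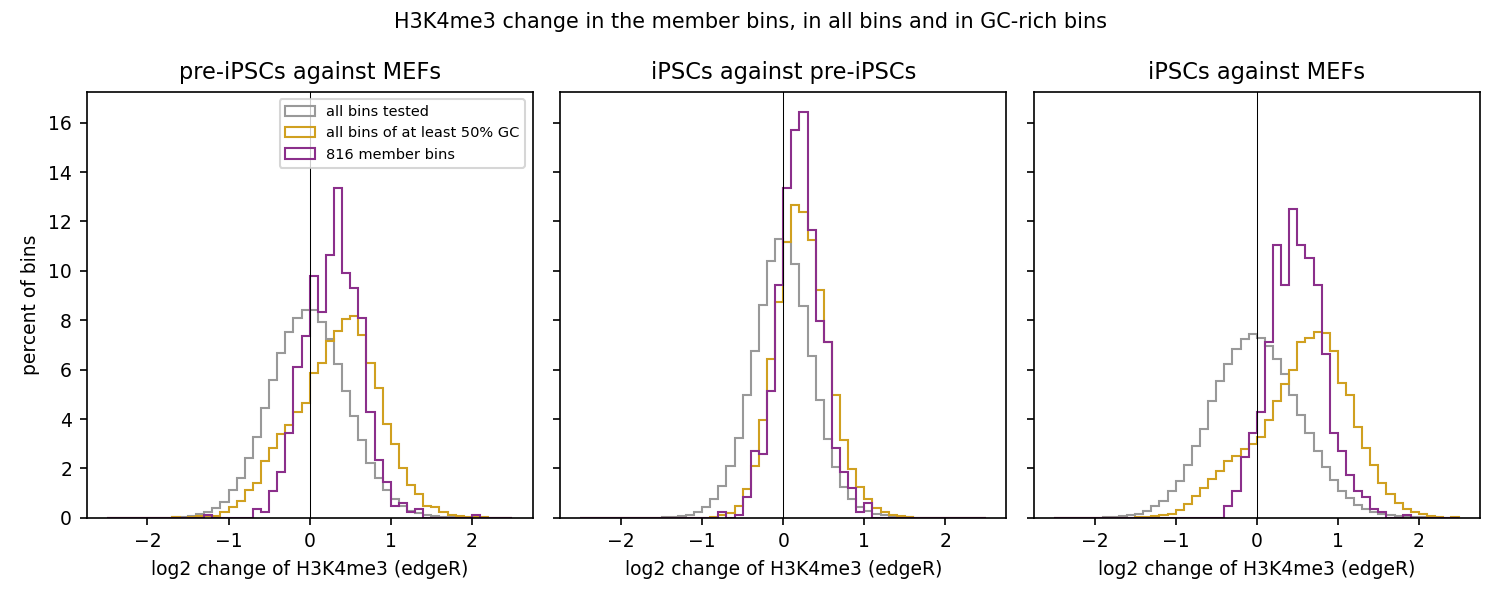
Distribution of the edgeR log2 change of H3K4me3 (x axis) as percent of bins (y axis) for the members, all tested bins and tested bins of at least 50% GC, in 3 comparisons of cell types; values past the axis are drawn at its ends. The members' medians lie above 0 (0.30 in pre-iPSCs and 0.49 in iPSCs against MEFs, 0.20 between pre-iPSCs and iPSCs), and those of GC-rich bins against MEFs lie higher still, at 0.37 and 0.63.

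Without a test, both iPSC libraries lay above both MEF libraries in H3K4me3 in 547 of the 816 bins (67.0%), against 22.6% of all bins, and below them in 13 (1.59%) against 26%. Such shares were not counted for bins of at least 50% GC, so they cannot be called particular to the members. By edgeR the median log2 change from MEFs to iPSCs was 0.63 in those bins and 0.55 in members of that GC content. The pre-iPSC libraries lay above those of MEFs in 396 (48.5%) against 21.4% and below in 44 (5.39%) against 22.7%. From pre-iPSCs to iPSCs the libraries were higher in 299 bins (36.6%) against 17.3% and lower in 43 (5.27%) against 18.1%, with a median log2 change of 0.20. In that comparison edgeR called 0 of 871 members, with 80 at an unadjusted p under 0.05, where 0.0061% of all bins were higher and 0.000678% lower (0.00678% in either direction). DESeq2 called 0 with 38 at an unadjusted p under 0.05, and an edgeR fit of those 2 cell types alone called 0 of the 816 and 3 of the bins with high H3 (0.00897% of all bins). The counts at an unadjusted p are not set against a share of all bins either. For iPSCs against MEFs DESeq2 called 25 higher and 0 lower of the 816 (3.06%, against 0.751% of all bins), and the 12 falls it called among the 871 were all in bins with high H3. Of the 816, edgeR called 1.35% without iPSC replicate 1, 3.80% without iPSC replicate 2 and 3.06% without MEF replicate 1, against 1.30%, 3.26% and 1.50% of all bins.

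The largest H3K4me3 rises were at bins of very different H3K27me3 course. In an intergenic bin near Fam53a (chr5:33875001-33880000) H3K4me3 was 1.40 and 0.729 in MEFs, then 4.32 and 4.27 in pre-iPSCs, then 3.04 and 3.25 in iPSCs, a log2 rise of 2.02 in pre-iPSCs (SE 0.315, adjusted p = 1.4e-04) and 1.59 in iPSCs (SE 0.323, adjusted p = 0.00152). Its H3K27me3 went from 3.52 and 3.71 to 0.922 and 1.45 and then 0.980 and 0.974. At the start of Kcnq1, an imprinted potassium channel gene (chr7:150290001-150295000), H3K4me3 was 1.40 and 1.42, then 4.12 and 3.26, then 3.23 and 3.62, a rise of 1.40 in pre-iPSCs (SE 0.300, adjusted p = 0.00639). There H3K27me3 read 3.98 and 3.30 in MEFs, then 3.37 and 3.21 in pre-iPSCs, then 2.61 and 3.41 in iPSCs. The Fam53a bin thus gained H3K4me3 beside low H3K27me3 and the Kcnq1 bin beside high H3K27me3.

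A bin inside Macrod1 near Flrt1, a cell adhesion gene (chr19:7200001-7205000), rose by 1.39 in pre-iPSCs (SE 0.327, adjusted p = 0.0134). In iPSCs against MEFs the bins near Pick1 (chr15:79030001-79035000) and at Smtnl2 (chr11:72215001-72220000) rose by 1.80 (SE 0.316, adjusted p = 2.9e-04) and 1.60 (SE 0.318, adjusted p = 0.00129). The single H3K4me3 fall among the 816 was an exonic bin of Pax6, the eye and forebrain regulator (chr2:105525001-105530000). It read 4.08 and 2.88 in MEFs, then 1.50 and 1.34 in pre-iPSCs, then 1.99 and 3.33 in iPSCs, a change of -1.27 from MEFs to pre-iPSCs (SE 0.308, adjusted p = 0.0162). Its H3K27me3 was also lower in the later cells, at 3.22 and 3.17, then 1.21 and 1.26, then 1.52 and 1.42. Without pre-iPSC replicate 1 or 2, edgeR called 4 and 3 of the 816 in pre-iPSCs against MEFs (0.490% and 0.368%, against 0.752% and 0.186% of all bins), and the Kcnq1 call was lost without pre-iPSC replicate 1 (adjusted p = 0.11). The Flrt1 call was lost without either MEF replicate or pre-iPSC replicate 2, and the Pax6 call without MEF replicate 1 or either pre-iPSC replicate (adjusted p of 0.060 to 0.19).

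The genes that start in these bins were nearly silent in MEFs. RNA was read as FPKM, a level scaled to transcript length and library depth, for the 199 RefSeq genes that started in one of the 871 bins, 195 of them in one of the 816. Of the 195, 1 reached 1 FPKM in both MEF libraries, against 49.8% of 19300 autosomal genes. That gene was Barx1, a homeobox gene of stomach and jaw mesenchyme, at 1.76 and 8.46 FPKM. In all, 2.05% and 3.59% of the 195 were at 1 FPKM or more in the MEF libraries, 17.4% and 15.9% in the pre-iPSC libraries and 22.6% and 20.0% in the iPSC libraries, where 52 to 55% of all genes were. Under 1 FPKM in all 6 libraries were 123 (63.1%) of the 195 and 36.2% of all genes. Most genes of these bins thus stayed under 1 FPKM in all libraries.

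Of all 19300 autosomal genes, 1.03% started in a member, and the counts of each gene list are to be read against that share. Of the 41 autosomal Hox-cluster genes 8 (19.5%) started in a member, 2 in each cluster: Evx1 and Hoxa13, Hoxb1 and Hoxb13, Hoxc11 and Hoxc12, and Evx2 and Hoxd12. None of the 8 reached 1 FPKM in both MEF libraries, whereas 25 of the 41 did, all of them outside the members. They were 9 of 12 in HoxA, 8 of 10 in HoxB, 6 of 9 in HoxC and 2 of 10 in HoxD. Of these 25, Hoxa11 (3.64 and 2.80) and Hoxd10 (3.64 and 2.53) reached the H3K27me3 threshold in MEF replicate 1 only. Their FPKM in MEFs was 1.05 and 2.40, and 1.17 and 2.53. The 8 thus lay mostly at the 5′ ends of their clusters, which pattern the posterior body, with Hoxb1 at the other end. Their H3K27me3 was 3.10 to 4.52 in MEFs, 1.63 to 3.14 in pre-iPSCs and 2.36 to 3.99 in iPSCs, and H3K4me3 was 1.90 to 3.60 in MEFs. Hoxb13 was at 0 FPKM in both MEF libraries, then 1.21 and 0.421 in pre-iPSCs, then 3.42 and 2.34 in iPSCs, a log2 difference of 1.94 between iPSCs and MEFs. The gene passed the filter on low values only through the later cells, so that the direction is fixed and no p is given. Its bin read 3.60 and 3.50, then 1.63 and 2.87, then 2.58 and 2.96.

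Outside the Hox clusters 15 of 104 homeobox genes (14.4%) started in a member, among them Cdx2 of trophoblast and gut, Onecut1, Lhx3, Nkx2-5 of the heart and Otx2. The Cdx2 bin was at 4.33 and 3.30 in MEFs, then 2.59 and 3.40 in pre-iPSCs, then 3.01 and 2.62 in iPSCs, and the gene was at 0 FPKM in 5 of 6 libraries and at 0.0841 in iPSC replicate 2. The Barx1 bin was at 3.90 and 3.47, 2.87 and 2.87, and 3.88 and 3.11. Of 18 listed Pax and Pou genes the members were Pax2, Pax3 and Pax5, and of 27 forkhead genes Foxa2, Foxd4 and Foxn4. Of 16 T-box genes they were T (brachyury), Tbx1, Tbx20 and Tbx21, and of 20 Sox and Gata genes Sox10. All of these members except Tbx1 were under 1 FPKM in every library. Pou2f2, a Pou gene that the list does not hold, also started in a member and is described below. The Tbx1 bin kept its level in pre-iPSCs, at 3.94 and 3.64 in MEFs, then 3.62 and 3.14 in pre-iPSCs, then 3.59 and 2.55 in iPSCs, with 0.709 and 0.821, 0.143 and 2.68, and 0.274 and 0.0518 FPKM.

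Of 44 Zic and neural or cardiac basic helix-loop-helix genes Hand1, Neurod1, Neurod2, Neurog1 and Neurog3 started in a member. The Neurod2 bin was one of the 45 that stayed at the threshold throughout, at 3.29 and 4.21, 3.08 and 3.63, and 3.16 and 3.34, with 0 FPKM in all 6 libraries. At Neurog3, an endocrine pancreas regulator, H3K27me3 read 3.41 and 3.47, 3.37 and 1.95, and 2.76 and 1.91, while H3K4me3 went from 1.19 and 1.42 in MEFs to 2.00 and 1.71 and then 3.54 and 3.08, a rise in iPSCs over MEFs (adjusted p = 0.0032, edgeR) with FPKM of at most 0.0609. Of 58 secreted Wnt, BMP, hedgehog and Fgf ligands the members were Dhh, Ihh, Wnt10a, Wnt3, Wnt7a and Wnt7b. The Ihh bin read 3.75 and 3.60, 2.69 and 3.02, and 3.01 and 2.55. The Wnt7b bin read 3.14 and 3.77, 4.11 and 3.06, and 3.41 and 2.66.

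No member held the start of any of 37 pluripotency genes, 41 fibroblast identity genes, 34 epithelial junction genes, 26 Polycomb complex genes or 7 Ink4 and Cdk inhibitor genes, and 1 of 35 imprinted genes, Kcnq1, was covered. At the share of 1.03% over all genes, under 1 gene would start in a member in each of these lists, so that a count of 0 does not set them apart. Of the listed genes with a start in a member, 5 passed the FPKM filter, and limma called 1 higher in pre-iPSCs than in MEFs and 2 higher in iPSCs than in MEFs, where 7.39% and 10.3% of all genes tested were higher. The filter favours genes that are higher in the later cells, so that these counts say nothing of direction. Of the 8 pluripotency markers 0 were at 1 FPKM in both libraries of MEFs, 4 in pre-iPSCs and 8 in iPSCs. Dppa3, Nanog, Utf1 and Zfp42 were at 0 in MEFs, and Dppa3 also in pre-iPSCs. The markers summed to 0.0233 and 0.905 FPKM in MEFs, then 632 and 3524 in pre-iPSCs, then 2282 and 2179 in iPSCs. The pre-iPSC libraries thus differed widely, and replicate 2 lay above both iPSC libraries, so that the sum does not order these 2 cell types.

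Expression was tested with limma on log2(FPKM + 1) over 12401 genes. Only 57 of the 195 genes passed the filter on low values, and 44 of the 57 had a MEF mean under 0.5 FPKM, so that they passed through a later cell type and had to be higher there. Barx1 and Tbx1 are among the other 13. For that reason the 22 higher and 0 lower in pre-iPSCs against MEFs and the 25 higher and 0 lower in iPSCs against MEFs support nothing about direction (7.39% and 9% of all tested genes were higher and lower in the first, 10.3% and 15.5% in the second, and 16.4% and 25.9% in either direction). From pre-iPSCs to iPSCs 12 were higher and 11 lower, where 3.91% and 4.71% of all genes were (8.62% in either direction). The filter weighs on this count too: 9 of the 12 and 5 of the 11 had a mean under 0.5 FPKM in both other cell types, so that they passed only through the cell type in which they were high, and the count supports nothing about the members. Without the filter 13.0% of genes over all members were called, against 4.6% of all genes. Of the 58 genes over all members 39.7% were called. The count also rests on the iPSC libraries: the share fell when either of them was left out, among these genes and among all genes alike.

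A first group of genes was highest in pre-iPSCs. Npy, neuropeptide Y, was at 0.800 and 4.86 FPKM in MEFs, then 80.8 and 649 in pre-iPSCs, then 2.02 and 4.85 in iPSCs. It rose by 6.15 on the log2 scale from MEFs (SE 0.507, adjusted p = 0.00106) and changed by -5.78 to iPSCs (adjusted p = 0.0016). Its bin read 3.52 and 3.03 in MEFs, then 1.42 and 0.956 in pre-iPSCs, then 2.18 and 1.46 in iPSCs. Both pre-iPSC libraries were thus the highest in RNA and the lowest in the mark, but the change of the mark from pre-iPSCs to iPSCs did not pass the test (adjusted p = 0.47).

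Itgb4 was at 0.273 and 0.623 FPKM in MEFs, then 31.7 and 54.4 in pre-iPSCs, then 1.47 and 1.26 in iPSCs. The log2 difference of 4.89 (SE 0.393) from MEFs is given without a p, since the MEF mean was under 0.5 FPKM. RNA changed by -4.17 to iPSCs (adjusted p = 0.00181, limma), and the H3K27me3 course of Itgb4 is given above. Mal, a raft protein of myelin and epithelia, was at 0.0387 and 0.056, 20.7 and 42.5, and 0.0899 and 0.034 FPKM, a log2 difference of 4.88 from MEFs and of -4.86 to iPSCs, without a p because the gene passed the filter only through pre-iPSCs. In the Mal bin (chr2:127480001-127485000) the mark read 3.52 and 3.10, then 1.21 and 1.26, then 2.50 and 2.74. In both genes RNA was high in the cell type whose mark was low, and the mark was higher again in iPSCs by edgeR. The call of the mark at Mal was lost without either pre-iPSC library and with all 6 libraries in the fit (adjusted p of 0.052 to 0.18), whereas the edgeR call at Itgb4 was kept under these settings.

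Ngfr, the p75 neurotrophin receptor, was at 0.466 and 0.609, 53.1 and 22.3, and 1.90 and 2.15 FPKM (4.53 from MEFs to pre-iPSCs and -3.55 to iPSCs, adjusted p = 0.00169 and 0.00511). Its bin read 3.29 and 3.67, 1.35 and 1.15, and 1.96 and 1.80. Grm4, a metabotropic glutamate receptor, was at 0.0336 and 0.052, 12.0 and 6.96, and 0.156 and 0.0886 FPKM, a log2 difference of -3.18 from pre-iPSCs to iPSCs, for which no p is given for the same reason as at Mal, while its bin read 3.48 and 3.34, 2.16 and 1.22, and 3.59 and 2.74. Sigirr, an inhibitory receptor of interleukin-1 signalling, was at 0.104 and 0.0804, 17.1 and 33.4, and 3.70 and 3.29 FPKM with the mark at 3.37 and 3.07, 1.28 and 1.76, and 1.12 and 1.24. The mark at Ngfr, Grm4 and Sigirr did not pass the test between pre-iPSCs and iPSCs. Without iPSC replicate 2 the RNA calls from pre-iPSCs to iPSCs were lost for Npy, Itgb4 and Ngfr, and without iPSC replicate 1 for Ngfr (adjusted p of 0.050 to 0.075). In Sigirr the mark stayed low in iPSCs, in which the RNA libraries also lay above those of MEFs.

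**Figure D4:**
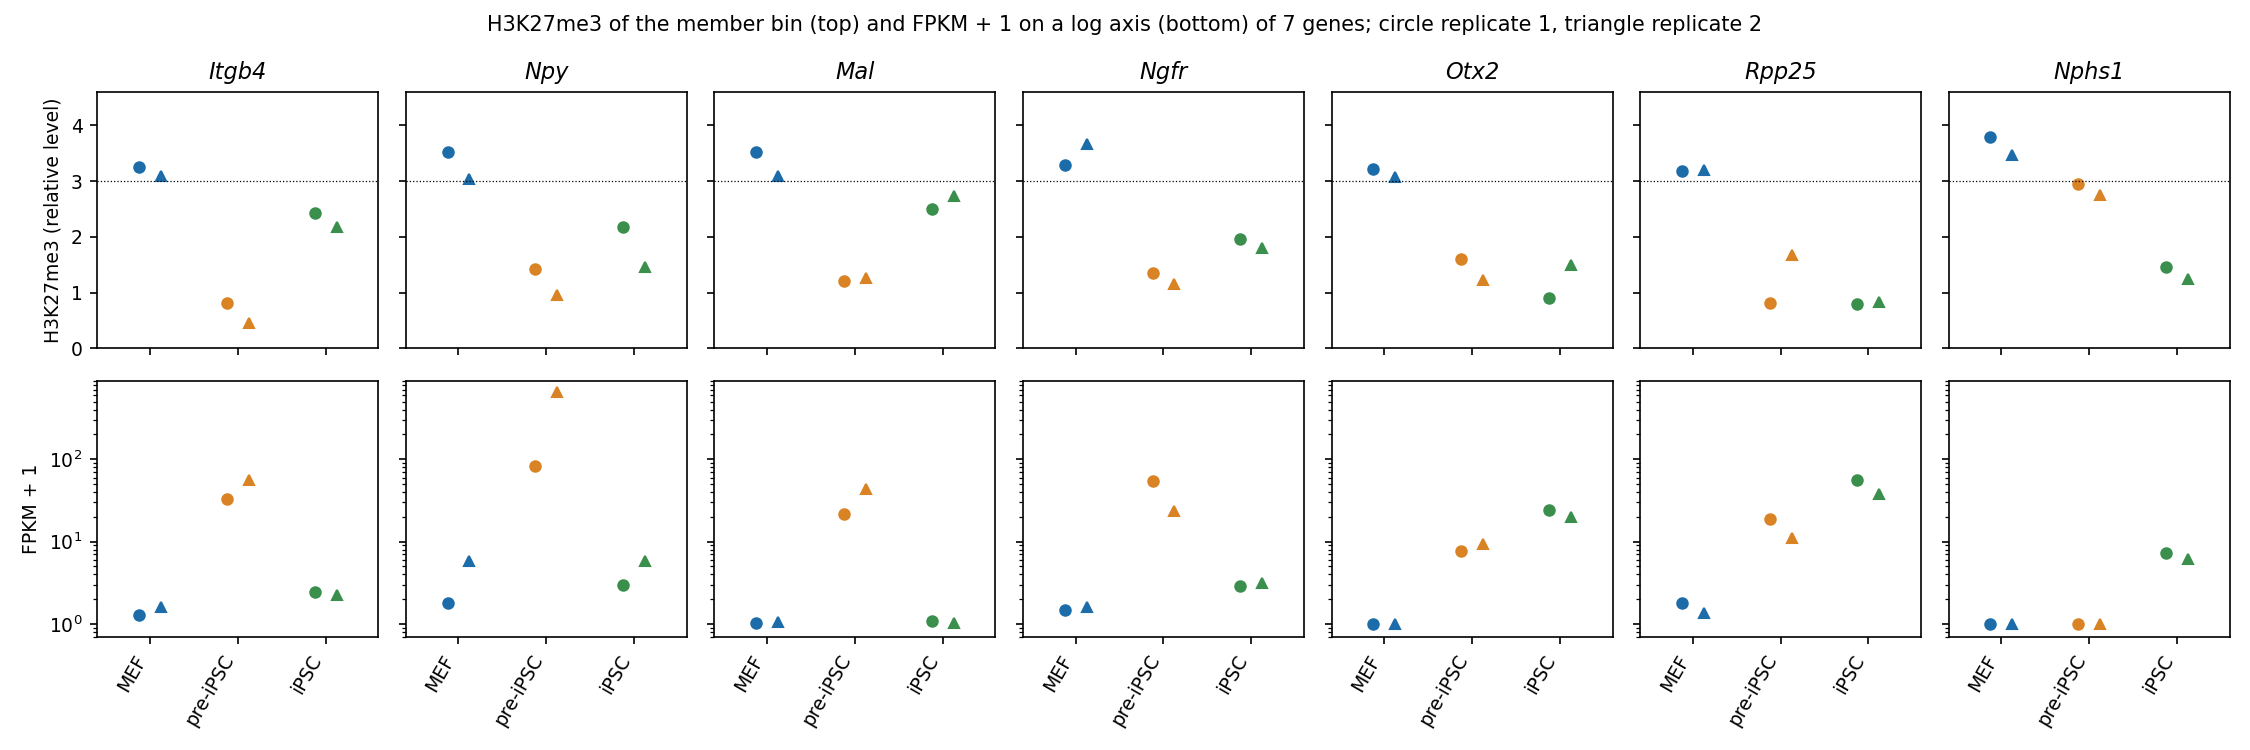
H3K27me3 level of the member bin (top, linear axis, dotted line at 3) and FPKM + 1 (bottom, log axis) for 7 genes in MEFs, pre-iPSCs and iPSCs on the x axis; circles are replicate 1 and triangles replicate 2. Itgb4 and Mal have their lowest mark and highest RNA in pre-iPSCs, and Otx2 and Rpp25 have low mark and high RNA in both later cell types.

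Another group was on in both later cell types. Otx2 and Camkv, at 0 in MEFs, passed the filter only through the later cells, which fixed the direction, so that no p is given for them. Otx2 was at 0 FPKM in both MEF libraries, then 6.80 and 8.44 in pre-iPSCs, then 23.1 and 18.6 in iPSCs, a log2 difference of 4.44 between iPSCs and MEFs (SE 0.372), while its bin (chr14:49280001-49285000) read 3.22 and 3.07, 1.60 and 1.22, and 0.908 and 1.50. Rpp25, a subunit of RNase P, was at 0.811 and 0.375, 18.1 and 10.2, and 55.0 and 37.4 FPKM, a rise of 4.88 (SE 0.352, adjusted p = 6.7e-04), while its bin (chr9:57350001-57355000) read 3.18 and 3.20, 0.816 and 1.68, and 0.799 and 0.825. Camkv, a kinase-like protein of neuronal vesicles, differed by 2.89 from MEFs to iPSCs, at 0 and 0 FPKM, 5.85 and 1.80, and 8.20 and 4.98. Its bin read 3.41 and 3.94, 2.09 and 2.22, and 1.74 and 2.02. That the mark was higher in MEFs is set by the choice of the bins.

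Other genes were highest in iPSCs. Nphs1, Pou2f2 and Tmem8 passed the filter only through iPSCs, which fixed the direction, so that no p is given for their RNA. Nphs1 was at 0.0171 and 0.0132 FPKM in MEFs, then 0 and 0.0123 in pre-iPSCs, then 6.22 and 5.19 in iPSCs, a log2 difference of 2.73 from pre-iPSCs (SE 0.296), in the bin whose mark fell from pre-iPSCs to iPSCs. Its mark was at 2.75 or more in the 4 libraries of MEFs and pre-iPSCs.

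Prph, peripherin of peripheral neurons, was at 0.056 and 0.229, 1.39 and 0.667, and 8.58 and 9.87 FPKM, a rise of 2.35 from pre-iPSCs (adjusted p = 0.0094), with the mark at 3.29 and 3.27, 1.74 and 2.18, and 2.40 and 2.02. Pou2f2, the lymphoid Oct-2, was at 3.81 and 2.79 FPKM in iPSCs, a log2 difference of 1.94 from pre-iPSCs, with the mark at 3.60 and 3.27, 2.66 and 2.37, and 2.32 and 3.15. Tmem8 was at 5.23 and 4.65 FPKM in iPSCs, a log2 difference of 2.05, with the mark at 3.71 and 3.60, 1.99 and 2.68, and 1.49 and 2.32. For Prph, Pou2f2 and Tmem8 the libraries of the mark overlapped between pre-iPSCs and iPSCs, so that RNA was higher in iPSCs without a separated change of the mark. The RNA call for Prph was lost when either iPSC library or pre-iPSC replicate 2 was left out (adjusted p of 0.061 to 0.10).

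Read across genes, the mark was lower where the gene was on. The 11 genes at 5 FPKM or more in both pre-iPSC libraries (Grm4, Insl3, Itgb4, Mal, Msi1, Ngfr, Notum, Npy, Otx2, Rpp25 and Sigirr) had median H3K27me3 of 3.29 and 3.17 in MEFs and 1.42 and 1.26 in pre-iPSCs. The 154 genes under 1 FPKM in both had 3.37 and 3.32 in MEFs and 2.64 and 2.72 in pre-iPSCs. In iPSCs the medians were 2.07 and 1.93 for the 8 genes at 5 FPKM or more and 2.69 and 2.66 for the 145 genes under 1 FPKM. H3K9me3 in pre-iPSCs was 0.981 at the 11 genes and 1.47 at the 154. These classes were set by expression and are given without a test.

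Across the 57 genes that passed the filter, the change of H3K27me3 from pre-iPSCs to iPSCs and that of RNA had a Pearson correlation of -0.65 and a Spearman correlation of -0.51, and H3K4me3 and RNA of 0.49 and 0.49. The points share the same 4 libraries of each assay, and genes are not independent replicates. Of the 12 genes higher in iPSCs, 9 had a log2 change of the mark below 0, with a median of -0.29. Of the 11 lower in iPSCs, 2 did, with a median of 0.58. The median change over all 816 bins was -0.04. By RNA, 9 of the 12 and 5 of the 11 passed the filter only through the cell type in which they were high, which fixed their direction. No such relation was computed for genes outside the members, so it cannot be called particular to them. These values are a description without a test.

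**Figure D5:**
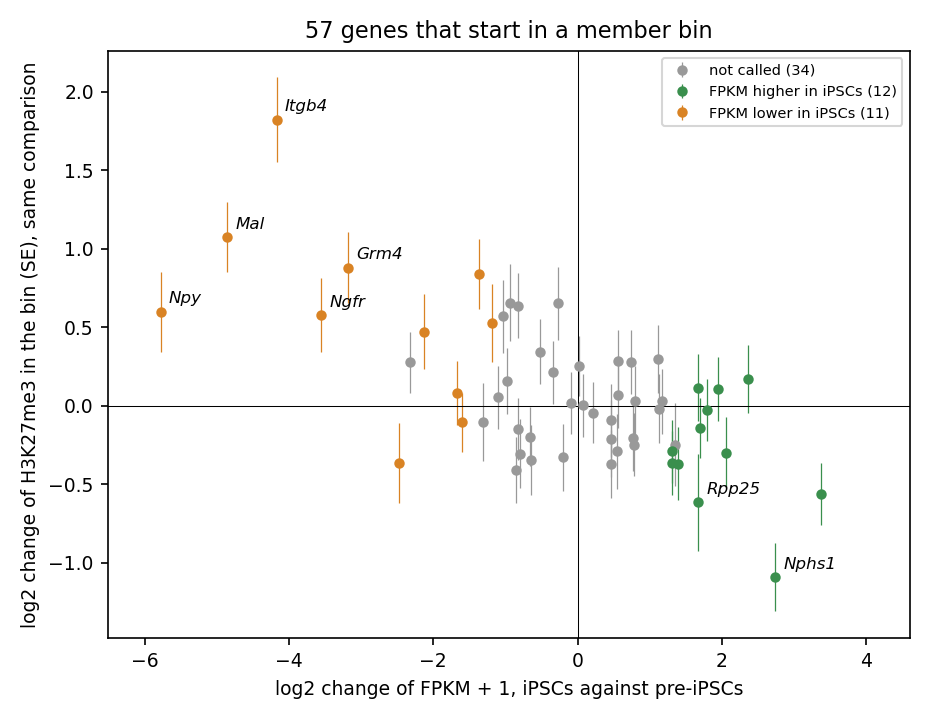
Log2 change of FPKM + 1 (x axis) and of H3K27me3 in the bin with its SE (y axis), iPSCs against pre-iPSCs, for 57 genes that start in a member bin; colours mark the 12 genes called higher and the 11 called lower in RNA. Most genes lower in iPSCs lie above 0 on the y axis (9 of 11) and most genes higher in iPSCs below it (9 of 12). The filter on low values fixed the RNA direction of some of these genes, and the plot is a description.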

How the data were processed

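Nucleosomes immunoprecipitated for H3, H3K4me3, H3K27me3 or H3K9me3 were sequenced in 21 libraries, and RNA in 6. The authors aligned ChIP reads to mm9 with Bowtie 1.0.1, kept unique reads and found nucleosomes by GeneTrack. Each deposited nucleosome has a count of its reads and a fuzziness, the spread of its reads in bp. Reads outside calls were not analysed here. RNA was aligned by the authors with TopHat2 2.0.4 and deposited as FPKM from Cufflinks 2.0.2, in 2 tables normalized separately that each hold 1 replicate of every cell type.

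Counts were summed by dyad in 5-kb bins. GC content, CpG and sequences were read from NCBIM37, the same assembly as mm9, with GENCODE annotation, and TSSs from the RefSeq positions of the expression tables. Bins were tested with edgeR 4.0.16 (TMM, filterByExpr, quasi-likelihood, Benjamini-Hochberg over all bins, false discovery rate of 0.05), H3K27me3 on the 4 pre-iPSC and iPSC libraries and H3K4me3 on all 6. RNA was compared with limma-trend (limma 3.58.1) on values of log2(FPKM + 1), keeping means of 0.5 FPKM or more, with the table as a term, and called at an adjusted p under 0.05 and a log2 change of at least 1. An exact permutation test of 2 against 2 libraries cannot go below 0.33, so the spread was shared across bins or genes. The study describes its H3, H3K4me3, H3K27me3 and RNA libraries as 2 biological replicates. Whether those of a group came from separate cultures is not stated, and p-values then measure the spread between these libraries. DESeq2 1.42.0 and the other settings given in the closing section were alternatives, and the fits were tested on simulated data. Counting intervals cover counting error only.

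The rule for named bins took the 10 highest in MEFs, the 5 longest runs, the 3 on either side of the threshold, the 3 largest separated rises and falls called per comparison and the 3 of highest H3K9me3, and that for genes the 5 largest rises and falls called per comparison, up to 4 genes a list, and all Hox genes. The other rises of H3K27me3 (Mapk15, Pllp and Mal) were named after their values were seen. Some genes that the rule names are not reported here. Members, lists and tests were chosen with earlier results of these data known.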

Additional observations from a re-analysis of the deposited data

How the results depend on the processing

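The number of members followed the definition, with 871 at 3 times the mean bin, 18988 at 2 times, 42 at 4 times, 5188 from calls of at least 2 reads, 539 against the mean of bins with H3 reads, 1936 against the median bin, 303 bins of 10 kb and 244 after division by H3; a single MEF replicate gave 2461 to 2792. The percent still at the threshold was 18.5 in pre-iPSCs and 16.4 in iPSCs, and, under the same settings, 42.2 and 30.4 at 2 times, 76.2 and 73.8 at 4 times, 30.2 and 22.1 from calls of at least 2 reads, 22.5 in pre-iPSCs against the median bin, 15.0 in iPSCs against bins with H3 reads, 14.9 in iPSCs with bins moved by 2500 bp, 0 and 0.410 after division by H3 and 14.0 and 11.6 without high H3. It ranged from 9.96 to 31.1 and from 7.20 to 29.5 with 1 library left out. The percent of members called was 1.03 for H3K27me3, iPSCs against pre-iPSCs (0 by DESeq2, 0.637 and 2.38 for members at 2 and 4 times, 0.459 to 4.25 with 1 library left out). For H3K4me3 it was 3.10 in pre-iPSCs against MEFs (28.6 at 4 times, 1.72 without high H3, 0.344 to 3.56 with 1 library left out), 0 in iPSCs against pre-iPSCs (0.344 with those cell types alone, 0.00527 at 2 times, 0 to 0.804 with 1 library left out, the highest without either MEF replicate) and 10.9 in iPSCs against MEFs (4.36 by DESeq2, 26.2 at 4 times, 1.26 to 8.96 with 1 library left out). For RNA it was 37.9 in pre-iPSCs against MEFs (9.19 with no filter, 0 at 4 times, 34.6 to 39.4 with 1 library left out), 39.7 in iPSCs against pre-iPSCs (13.0, 0, and 1.92 without iPSC replicate 2 to 53.2) and 43.1 in iPSCs against MEFs (14.6, 0, and 20.4 without iPSC replicate 1 to 58.2; 26.9 without iPSC replicate 2). The 4-times members include mostly bins with high H3. The shares of all bins and genes called in the main fits are given in the Results. The ranges with 1 library left out are not set against such shares here, and each of those fits leaves 1 library in a group. These ranges thus show how far the calls depend on single libraries. They do not set the members apart from all bins or genes. With no filter 7.3, 4.6 and 14.0% of all genes were called for RNA in the same order.

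The replicate numbers were not taken as pairs, because the labels name no shared batch and the differences between replicates correlated at -0.146 to 0.135 between cell types over all bins, apart from 0.796 for H3 of pre-iPSCs and iPSCs. With the number as a block, 4.25% of members were called for H3K27me3 (24 higher and 13 lower), against 0.788% of all bins. For H3K4me3 the block gave 2.64, 0 and 9.07% in the order above, against 1.59, 0.00203 and 5.74% of all bins. Without the table as a block, 39.7, 39.7 and 43.1% of genes were called for RNA, against 16.1, 9.06 and 24.2% of all genes.

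Of the alternatives for named bins and genes, 324 kept the call and 50 lost it, and none changed direction. These counts pool unlike results: 28 of the 50 losses were among the 90 alternatives for H3K27me3, and 185 of the 324 were for RNA. The filter on low values fixed the RNA direction of some of these genes, so that their kept calls and direction support nothing. Depth limits the bins: 26.1 to 29.7 H3K27me3 reads per bin leave a counting error near 11.3% at the threshold.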
